A study of Mus musculus with 24 samples.

Results

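The Ms4a4, Ms4a6 and Ms4a7 genes of the mouse encode small proteins that cross the cell membrane 4 times and belong to the membrane-spanning 4A (MS4A) family. The 7 genes described here, Ms4a4b, Ms4a4c, Ms4a4d, Ms4a6b, Ms4a6c, Ms4a6d and Ms4a7, were taken by their gene symbols, which match 14 of the 34945 probe sets with a single symbol. With each gene represented by its brightest probe set, they are 7 of 18193 genes. They were proposed with the difference between grafted and control skin in these same arrays in view, so for these 7 that difference is described below and not tested.

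Expression was measured in skin from between the shoulders of female RAG2-/- mice, on 24 Affymetrix arrays in 6 groups of 4. All recipients lacked Rag2, which is needed to assemble antigen receptors, so T and B cells in them come from the donor while they keep natural killer cells and myeloid cells. Syngeneic mice received Balb/c splenocytes and carry no antibody in their titles. GVH-SSc mice, a graft-versus-host model of scleroderma, received B10.D2 splenocytes together with an isotype antibody or with anti-IFNAR1, which blocks the receptor for type I interferons. Each of the 3 arms was sampled at day 14 and at day 28. If syngeneic mice received no antibody, the graft and the injected immunoglobulin cannot be told apart in isotype against syngeneic skin. The labels do not say whether arrays of a group are separate animals, so a p-value here reflects spread among arrays that may be technical.

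The best known members of the family are Ms4a1, which encodes the B cell antigen CD20, and Ms4a2, which encodes the beta chain of the high-affinity IgE receptor of mast cells. Ms4a4b is known as a T cell surface protein that associates with the costimulatory receptor GITR and modulates T cell activation. Ms4a6b, Ms4a6c, Ms4a6d and Ms4a7 are expressed in monocytes and macrophages, and Ms4a6b also in T cells. MS4A proteins have also been described as odour receptors in the mouse olfactory system. In whole skin, fewer cells of a type and less RNA per cell cannot be told apart.

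The 7 genes are neighbours. RefSeq places 21 Ms4a genes on chromosome 19 of the GRCm38.p6 build. Counted along the chromosome, Ms4a7 is the 12th, and Ms4a4c, Ms4a4b, Ms4a6c, Ms4a6b, Ms4a4d and Ms4a6d follow as the 14th to the 19th. The gene between them, Ms4a4a, was not analysed here. RefSeq promoter windows, from 250 bases before to 50 after the transcription start, were at hand for 6 of the 7 genes, all but Ms4a6d. The stretch from 100 bases before to 20 after the start is printed for each of the 6, because it shows which promoters are copies of each other and holds a 6-base word that all 6 windows share. It reads 5′ to 3′ on the strand of the gene, and capitals mark the ETS core GGAAGT or its reverse complement ACTTCC.
Ms4a4b, chr19:11443458-11443577, plus strand: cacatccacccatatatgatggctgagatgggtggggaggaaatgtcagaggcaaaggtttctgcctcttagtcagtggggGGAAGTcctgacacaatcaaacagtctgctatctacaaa
Ms4a4c, chr19:11407561-11407680, plus strand: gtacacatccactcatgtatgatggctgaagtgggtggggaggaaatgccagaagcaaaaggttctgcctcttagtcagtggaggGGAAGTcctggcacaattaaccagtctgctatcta
Ms4a4d, chr19:11536694-11536813, plus strand: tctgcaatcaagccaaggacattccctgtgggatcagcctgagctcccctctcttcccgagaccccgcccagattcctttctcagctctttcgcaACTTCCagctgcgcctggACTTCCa
Ms4a6b, chr19:11518459-11518578, plus strand: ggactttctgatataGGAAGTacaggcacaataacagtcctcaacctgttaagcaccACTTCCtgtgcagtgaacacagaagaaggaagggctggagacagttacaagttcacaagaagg
Ms4a6c, chr19:11469268-11469387, plus strand: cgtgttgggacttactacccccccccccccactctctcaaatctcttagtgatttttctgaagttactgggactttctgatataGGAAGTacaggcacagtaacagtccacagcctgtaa
Ms4a7, chr19:11336127-11336246, minus strand: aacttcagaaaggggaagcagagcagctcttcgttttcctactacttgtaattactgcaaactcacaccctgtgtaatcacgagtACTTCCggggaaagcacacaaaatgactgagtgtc

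The promoters of Ms4a6b and Ms4a6c, and those of Ms4a4b and Ms4a4c, had the longest shared runs among the 15 pairs of windows. Positions are counted from the transcription start, with -1 the base before it. Ms4a6b and Ms4a6c shared a run of 48 identical bases, which begins at position -118 in Ms4a6b and at -49 in Ms4a6c. Laid over each other by that run, 50.6% of 231 bases were identical. Ms4a4b and Ms4a4c shared a run of 20 bases beginning at positions -41 and -38, and 50.8% of 297 overlaid bases were identical. The overlays allowed no gaps. A base gained or lost in 1 window puts all bases past it out of step, so these shares may understate the likeness. In the other 13 pairs the longest shared run was 7 to 13 bases. The word GGAAGT, the core of sites for ETS factors, occurred on either strand in 6 of 6 windows of 300 bases, against 23.8% of 32851 RefSeq mouse windows of that length. Its leftmost base lay at position -19 in Ms4a4b, -15 in Ms4a4c, -16 in Ms4a6c and, as the reverse complement, -15 in Ms4a7. Ms4a4d and Ms4a6b held it more than once, at -5 and 14 and at -85 and -43 within the stretch printed. Outside that stretch Ms4a4d held it again at -221 and Ms4a6c at 26. This word was singled out after the matches of 10 words had been seen. The sites at -85 in Ms4a6b and -16 in Ms4a6c lie within the run of 48 bases that these 2 windows share. Those of Ms4a4b and Ms4a4c lie just past their shared run, and out of step with it. The 6 windows are therefore not independent.

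The other 9 words were also searched on both strands of the windows of 300 bases. The interferon-stimulated response element, searched as GAAANNGAA with a further A at its end, was in 0 of 6 windows and 3.44% of all, and the GAS element TTCNNNGAA in 0 of 6 and 8.3%. The word GAAANNGAA without that A was in the windows of Ms4a6b, Ms4a6c and Ms4a7 (3 of 6, 8.56% of all). The core GAGGAA of PU.1, a myeloid ETS factor, was in those of Ms4a4b, Ms4a4c and Ms4a7 (3 of 6, 28.3%), and it can overlap GGAAGT. An ETS and IRF composite, GGAA and GAAA with NN between them, was in 0 of 6 (2.72%). An AP-1 word, TGANTCA, was in 1 of 6 (7.81%), a RUNX word, TGTGGT, in 1 (16.8%), a C/EBP word, TTGCNNAA, in 1 (10.8%) and an NF-kB word, GGGA and CC with NNNN between them, in 2 (20.7%). A match is a run of letters and not a bound site.

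Levels are given as log2(intensity + 16), a scale on which a signal of 0 reads 4, and means are given with their SD over 4 arrays. An array measures each gene with its own probes, so levels are compared between groups and not between genes. All 7 genes had their highest mean in isotype skin at day 14 and their lowest in syngeneic skin at day 28.

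In isotype skin at day 14, Ms4a4b, the T cell member, read 12.12, 12.05, 12.35 and 11.43 in replicates 1 to 4, and at day 28 it read 11.17, 11.20, 11.42 and 10.63. Under anti-IFNAR1 it read 11.11, 10.03, 10.79 and 11.02 at day 14 and 8.36, 8.77, 8.88 and 8.56 at day 28. In syngeneic skin the values were 8.62, 8.82, 6.11 and 5.92 at day 14 and 5.44, 5.53, 4.998 and 4.98 at day 28. Syngeneic skin at day 14 thus fell into 2 high and 2 low arrays, and the high ones reached into the range of anti-IFNAR1 skin at day 28. From lowest to highest the groups ran from syngeneic day 28 through syngeneic day 14, anti-IFNAR1 day 28, anti-IFNAR1 day 14 and isotype day 28 to isotype day 14. Only syngeneic day 14 with anti-IFNAR1 day 28, and anti-IFNAR1 day 14 with isotype day 28, overlapped among neighbours in that order.

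The myeloid member Ms4a6d read 13.93, 13.06, 12.96 and 11.37 in isotype skin at day 14 and 11.61, 12.04, 12.30 and 12.39 at day 28. Under anti-IFNAR1 it read 11.62, 10.42, 11.17 and 11.01 at day 14 and 8.88, 8.82, 9.49 and 8.98 at day 28. The syngeneic arrays gave 10.71, 10.19, 8.74 and 9.97 at day 14 and 8.74, 9.54, 8.48 and 8.50 at day 28. At day 28 anti-IFNAR1 arrays lay within the syngeneic range, and at day 14 they lay between the other groups, overlapping both.

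Ms4a7, a macrophage gene, gave 10.54, 10.56, 10.33 and 9.96 in isotype skin at day 14 and 9.02, 9.03, 9.97 and 9.23 at day 28. With anti-IFNAR1 it gave 9.55, 8.30, 8.66 and 8.89 and 7.67, 8.14, 7.55 and 7.99 at these days. Syngeneic skin gave 6.78, 7.44, 7.35 and 7.34 and 6.07, 6.94, 5.91 and 7.59. At day 14 the 3 arms did not overlap, and at day 28 only the anti-IFNAR1 and syngeneic arrays did.

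Ms4a4c, whose promoter is the most like that of Ms4a4b, varied most between arrays of a group. It read 10.98, 10.92, 9.77 and 8.58 in isotype skin at day 14, 7.64, 6.14, 8.14 and 7.78 with anti-IFNAR1 and 9.50, 8.74, 5.80 and 9.38 in syngeneic skin. At day 28 isotype skin gave 9.61, 8.85, 10.21 and 8.89, anti-IFNAR1 skin 5.62, 6.15, 6.09 and 5.67 and syngeneic skin 5.07, 6.22, 5.91 and 6.06. At day 14 the syngeneic arrays spanned both other groups in part, whereas at day 28 the isotype arrays stood alone above the other 8.

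Ms4a6b read 11.66, 11.71, 10.85 and 10.84 in isotype skin at day 14, 9.84, 8.79, 9.20 and 9.08 with anti-IFNAR1 and 9.32, 9.21, 7.70 and 7.77 in syngeneic skin. At day 28 isotype skin gave 9.40, 9.90, 11.00 and 10.18, anti-IFNAR1 skin 8.07, 7.85, 8.60 and 8.19 and syngeneic skin 6.74, 7.84, 6.59 and 8.14. Isotype arrays thus stood above all others of their day, while anti-IFNAR1 and syngeneic arrays overlapped. For Ms4a6c, the gene that shares its promoter run, the means were 10.16 ± 0.90 (SD, n = 4) in isotype, 8.36 ± 0.57 in anti-IFNAR1 and 7.06 ± 0.85 in syngeneic skin at day 14. At day 28 they were 9.29 ± 0.31, 6.89 ± 0.19 and 6.67 ± 0.62. Ms4a4d moved least, with arrays from 9.19 to 9.41 in syngeneic skin at day 28 to 10.34 to 11.07 in isotype skin at day 14. In Ms4a4c, Ms4a4d, Ms4a6b, Ms4a6c and Ms4a6d, every pair of groups that were neighbours in the order of means overlapped.

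**Figure D1:**
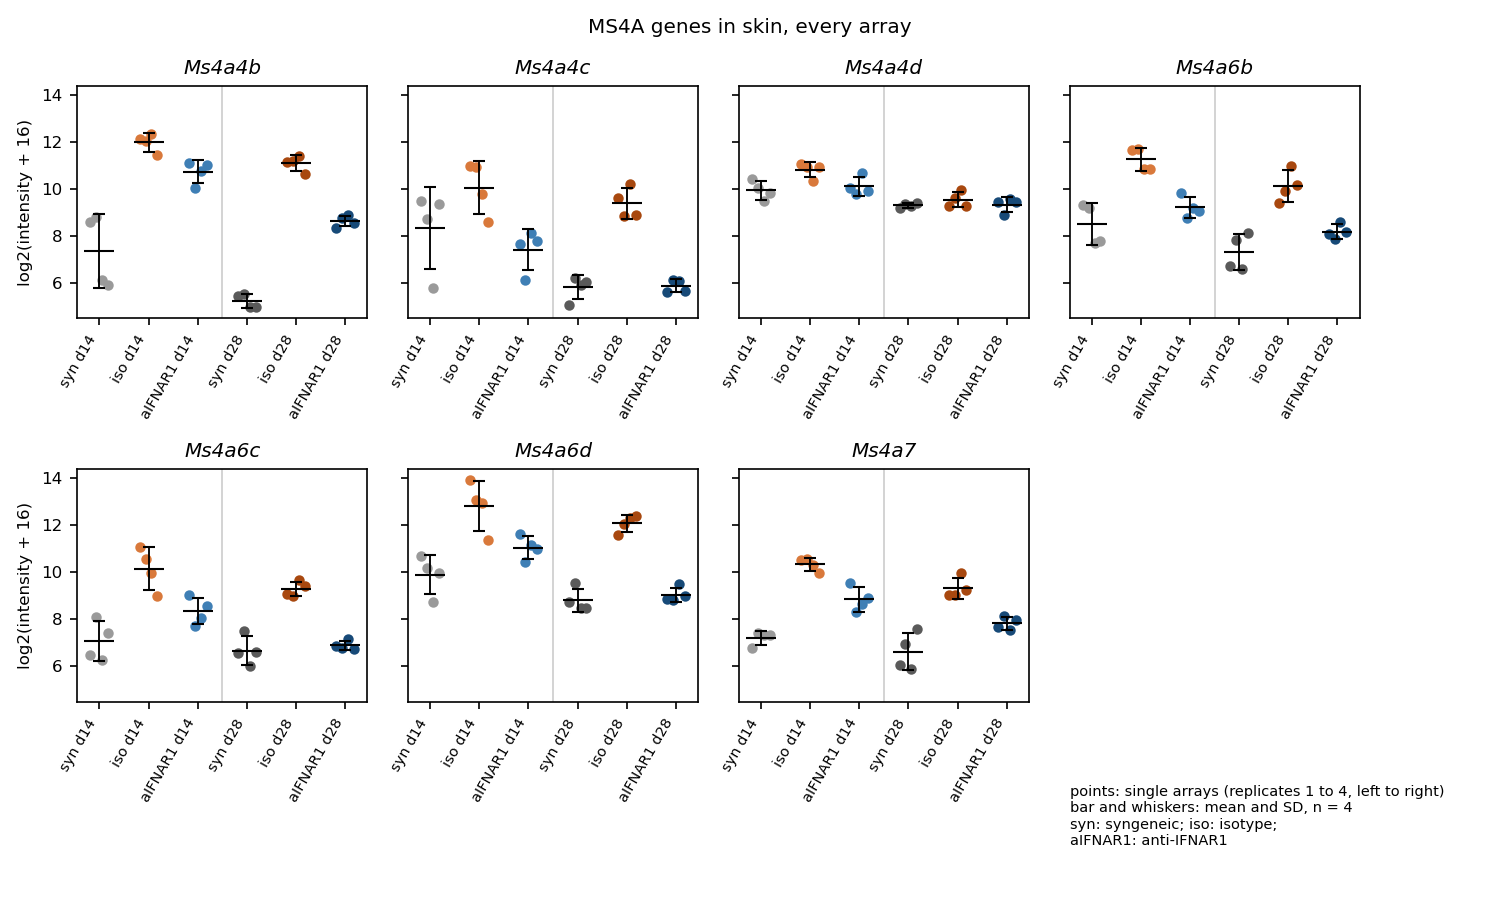
Level of each of the 7 genes on every array, as log2(intensity + 16), by arm and day, with bars at the mean and whiskers for the SD (n = 4). Isotype skin at day 14 has the highest mean and syngeneic skin at day 28 the lowest in all 7 panels, and Ms4a4d spans the narrowest range.

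The first question was how far the genes in GVH-SSc skin lay from syngeneic skin. With the isotype antibody at day 14, Ms4a4b was higher by 4.62 ± 0.50 (log2 difference ± SE), and Ms4a7, Ms4a6c, Ms4a6d and Ms4a6b by 3.12, 3.09, 2.92 and 2.76. Ms4a4c was higher by 1.71 ± 0.68 and Ms4a4d by 0.89 ± 0.23, with arrays that overlapped. The Ms4a4c difference rested on the low syngeneic replicate 3 and was 0.86 without it. At day 28 the difference was 5.87 ± 0.50 for Ms4a4b, 3.57 for Ms4a4c, 3.27 for Ms4a6d, 2.79 for Ms4a6b, 2.69 for Ms4a7 and 2.62 for Ms4a6c. Ms4a4d differed by 0.23 ± 0.23. Syngeneic skin at day 28 gave Ms4a4b intensities of 27.54, 30.07, 15.95 and 15.52, near the array medians of 14.8 to 17.7, so its distance there has no exact fold. That distance ran from 3.04 to 6.61 over 19 alternatives, with the lowest value from the mean of all probe sets and the highest from an offset of 1. Isotype arrays lay above all syngeneic arrays in 5 of 7 genes at day 14, where 5.11% of all genes did so, and in 6 of 7 at day 28, where 8.09% did. The genes were chosen on this contrast, so nothing is read from these counts.

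With anti-IFNAR1 the distance from syngeneic skin was 3.37 ± 0.50 for Ms4a4b at day 14 and 3.41 ± 0.50 at day 28. For the other 6 genes it ran from -0.93 (Ms4a4c) to 1.62 (Ms4a7) at day 14, and from 0.03 (Ms4a4d) to 1.21 (Ms4a7) at day 28. Arrays stood clear of the syngeneic ones for Ms4a4b and Ms4a7 at day 14 (1.62% of all genes) and for Ms4a4b alone at day 28 (1.34%). The day 28 value of Ms4a4b is again set against arrays near the background and ran from 1.71 to 4.11 over 19 alternatives, the lowest with the mean of all probe sets. For Ms4a4c, its neighbour on the chromosome, the day 28 difference was 0.07 ± 0.68 and ran from -0.18 to 0.43, and at day 14 it was -1.78 without syngeneic replicate 3. On single arrays, Ms4a4b minus Ms4a4c ran from 2.62 to 2.89 in anti-IFNAR1 skin at day 28 and from -1.08 to 0.37 in syngeneic skin at that day. The difference between 2 probe sets has no absolute meaning, and only its change between groups is read here. The contrasts with syngeneic skin share their syngeneic arrays, and no test of Ms4a4b against the others was made.

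**Figure D2:**
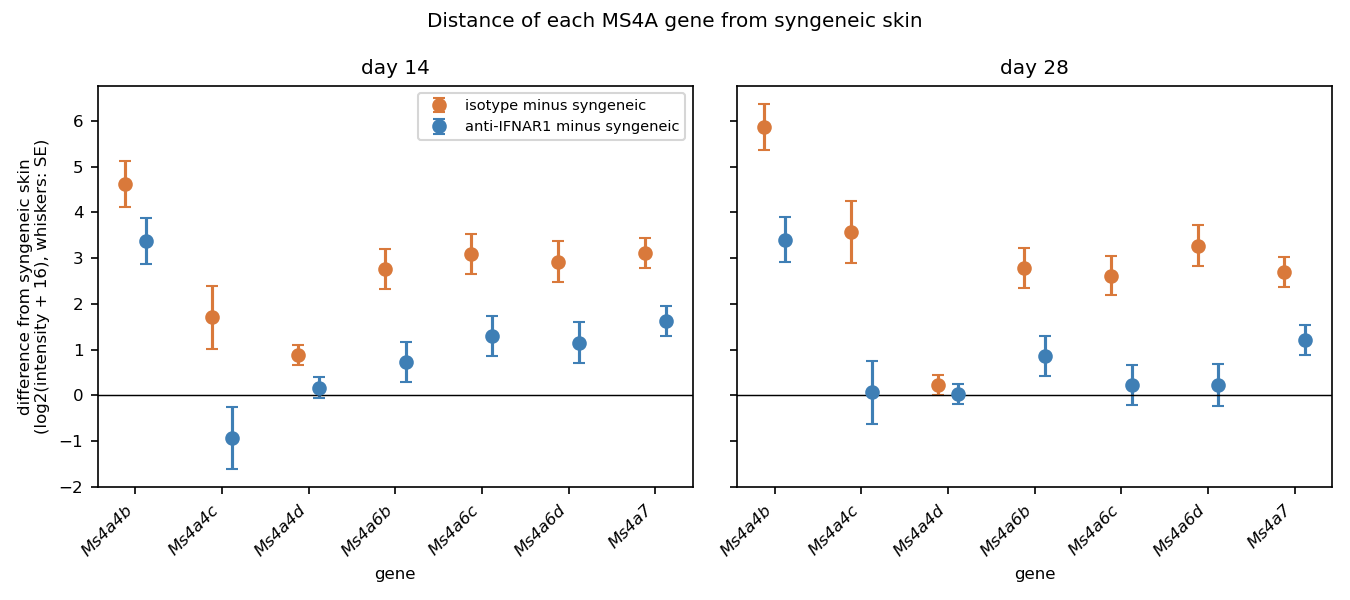
Difference of isotype and of anti-IFNAR1 GVH-SSc skin from syngeneic skin for each gene at day 14 and day 28, in log2(intensity + 16) units, with whiskers for the SE (n = 4 arrays per group). Under anti-IFNAR1 Ms4a4b stays at 3.37 and 3.41, while at day 28 the other 6 genes lie between 0.03 and 1.21.

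The second question was what blocking IFNAR1 did to these genes within GVH-SSc skin, tested with limma over all 18193 genes with Benjamini-Hochberg adjustment. This contrast shares the isotype arrays with the one on which the genes were chosen. At day 28, 6 of 7 genes fell and 0 rose past an adjusted p of 0.05, where 4.89% of all genes fell. Ms4a4c changed by -3.51 ± 0.68 (limma adjusted p = 0.00219), an 11.4-fold lower value. Ms4a6d changed by -3.04 ± 0.45 (adjusted p = 0.000319), Ms4a4b by -2.46 ± 0.50 (adjusted p = 0.00278) and Ms4a6c by -2.40 ± 0.44 (adjusted p = 0.00138). Ms4a6b, at -1.94 ± 0.44 (adjusted p = 0.00582), and Ms4a7, at -1.48 ± 0.33 (adjusted p = 0.00541), fell less. In each of these 6 genes the anti-IFNAR1 arrays all lay below the isotype arrays, as they did in 6.85% of all genes. Ms4a4d, at -0.20 ± 0.23 (adjusted p = 0.735), did not pass. The median change of the 7 genes was -2.40 and that of all genes 0.00.

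At day 14 all 7 differences were negative, with a median of -1.77, and 2 of 7 genes fell past the threshold, against 0.654% of all genes. These were Ms4a6b, at -2.04 ± 0.44 (limma adjusted p = 0.0335), and Ms4a7, at -1.50 ± 0.33 (adjusted p = 0.0374). Ms4a4c had the widest difference, -2.64 ± 0.68, and did not pass (adjusted p = 0.0693). Nor did Ms4a6c at -1.80 (0.0591), Ms4a6d at -1.77 (0.0667), Ms4a4d at -0.71 (0.122) or Ms4a4b at -1.25 (0.211). Arrays were separate for Ms4a4b, Ms4a4c, Ms4a6b and Ms4a7, as in 7.51% of all genes.

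The day 14 calls did not hold up: 0 of 7 passed when only the arrays compared were fitted or with the replicate block. Leaving out 1 of the 8 arrays of these groups gave 5 calls without isotype replicate 4, 3 without anti-IFNAR1 replicate 1 and 0 without each of the other 6. RNA quality moved with the day 14 groups. The log2 ratio of the 3' to the 5' Gapdh control probe set, which rises as RNA degrades, was 3.35 ± 1.35 (SD, n = 4) in anti-IFNAR1 and 1.34 ± 0.63 (SD, n = 4) in isotype skin. With that ratio as a covariate 0 of 7 genes passed at day 14 and 6 of 7 at day 28, where the ratios were 2.11 ± 1.19 (SD, n = 4) and 2.51 ± 1.54 (SD, n = 4).

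The difference between the effects at the 2 days was tested as an interaction in the same limma fit. It ran from -1.27 ± 0.64 for Ms4a6d (adjusted p = 0.395) to 0.51 ± 0.32 for Ms4a4d (adjusted p = 0.516), and 0 of 7 genes passed, nor did any at an unadjusted p of 0.05. Of all genes 0.0715% passed, and 2468 of 18193 had an unadjusted p under 0.05. For Ms4a4b it was -1.21 ± 0.70 (adjusted p = 0.476).

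The third question was how the levels moved between day 14 and day 28 within an arm. All 7 differences were negative in each arm. In isotype skin Ms4a4d fell, at -1.29 ± 0.23 (limma adjusted p = 0.0069), the only one of 7 to pass, against 1.05% of all genes that fell. Among its neighbours Ms4a7 had -1.03 ± 0.33 (adjusted p = 0.116) and Ms4a4b -0.88 ± 0.50 (adjusted p = 0.444). In anti-IFNAR1 skin Ms4a6d fell past the threshold, at -2.02 ± 0.45 (adjusted p = 0.0496), and Ms4a4b, at -2.10 ± 0.50 (adjusted p = 0.0609), did not (1 of 7, against 0.385% of all genes). In 6 of the 7, all but Ms4a4c, the day 28 arrays under anti-IFNAR1 lay below all day 14 arrays, as did 4.05% of all genes. In syngeneic skin 0 of 7 passed with limma, where 0.0715% of all genes fell. An unadjusted p under 0.05 was found for 5 of the 7, and for 1652 of all 18193 genes in either direction. Ms4a4b had -2.13 ± 0.50 there (adjusted p = 0.0933) and Ms4a4c -2.54 ± 0.68 (adjusted p = 0.152). The call for Ms4a6d is lost without any 1 of the 8 arrays except day 14 replicate 2, with the Gapdh covariate and with the replicate block, and that for Ms4a4d when only the arrays compared are fitted.

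Marker genes of the cells in which these genes are known were read beside them, from 12 lists chosen with earlier results of these arrays known. Of 15 measured T cell genes, 6 fell at day 14 and 14 at day 28, and 0 rose (limma; 0.654% and 4.89% of all genes fell). Over 19 alternatives the count ran from 0 to 13 at day 14. At day 28 it ran from 1 to 15, the 1 being without genes dimmer than the median gene. Cd3d, part of the signalling complex of the T cell receptor, changed by -1.34 ± 0.23 (adjusted p = 0.0102) and -2.31 ± 0.23 (adjusted p = 1.95e-05). Cd3e, of the same complex, changed by -1.58 ± 0.42 at day 28 (adjusted p = 0.0168) and had -0.34 ± 0.42 at day 14 (adjusted p = 0.779). The costimulatory receptor Icos, at -2.98, and Cd4, at -2.56, had the widest T cell changes at day 28. Of 13 cytotoxic lymphocyte genes 3 fell at day 14 and 7 at day 28, among them the granzyme gene Gzmk, at -2.89, and Nkg7, a granule protein, at -2.20. The cytotoxic counts ran from 0 to 9 at day 14 and from 2 to 8 at day 28. At day 28 the changes of 11 of the 13 were negative and those of 2 positive. The positive ones were Gzma, another granzyme gene, at 0.26 ± 0.87, and Ncr1, near the background, at 0.01. The granzyme gene Gzmb had -1.18 ± 0.67 and did not pass (limma adjusted p = 0.307).

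Of 20 macrophage and monocyte genes, 1 fell at day 14, the integrin gene Itgam, and 11 at day 28, against 0.654% and 4.89% of all genes. Over the 19 alternatives these counts ran from 0 to 10 and from 6 to 14, the 6 being without anti-IFNAR1 replicate 1. Clec4n, encoding Dectin-2, changed by -2.90 ± 0.57 (limma adjusted p = 0.00232) and the scavenger receptor gene Msr1 by -2.59 ± 0.57 (adjusted p = 0.00524). The lineage markers Csf1r, at -0.37 ± 0.16 (adjusted p = 0.136), and Adgre1, which encodes F4/80, at -0.23 ± 0.45 (adjusted p = 0.942), did not pass. The myeloid MS4A genes Ms4a6c and Ms4a6d passed at day 28 and these 2 markers did not, but all 20 genes of the list had negative changes. Adgre1 varied widely, with isotype arrays from 8.14 to 10.69 at day 28. In isotype minus syngeneic skin at that day Csf1r had 0.68 and Adgre1 had 1.26. The difference between the MS4A genes and the markers was not tested. Csf1r stayed bright, from a mean of 12.01 in syngeneic skin at day 28 to 13.24 in anti-IFNAR1 skin at day 14.

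Of 22 genes inducible by type I interferon, 6 fell at day 14 and 17 at day 28, led by Slfn4 at -3.09 and -4.35, and the counts ran from 0 to 21 and from 12 to 19. Of 15 inducible by interferon gamma, 0 fell at day 14 with limma and 1 at day 28, with counts from 0 to 5 and from 1 to 7. At day 14 each of these 5 lists gave 0 calls when only the arrays compared were fitted and its most calls with array weights. Of 8 neutrophil genes 0 fell at day 14 and 7 at day 28, where 0.654% and 4.89% of all genes fell. The widest neutrophil changes at day 28 were those of S100a9, at -6.47, S100a8, at -5.31, and Ngp, at -4.88. Of the remaining lists, dendritic and Langerhans (9 measured), B and plasma cell (9), mast cell (10), keratinocyte (7) and fibroblast (8), 0 genes passed at day 14. At day 28, 1 dendritic, 1 B and plasma cell, 1 mast cell and 1 keratinocyte gene fell, and 1 dendritic and 2 fibroblast genes rose, where 8.42% of all genes rose. The part of any cell type in the MS4A changes was not tested.

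List means per array set the MS4A genes beside their presumed cells. The mean of the T cell list was 6.95 ± 0.21 (SD, n = 4) in isotype, 5.44 ± 0.13 in anti-IFNAR1 and 4.84 ± 0.12 in syngeneic skin at day 28, and the summed intensity of its 15 genes ran from 1900 to 3235, 472 to 723 and 187 to 329. At day 14 the means were 7.18 ± 0.27, 6.19 ± 0.32 and 5.15 ± 0.30, and the sums ran from 2329 to 3406, 794 to 1663 and 195 to 646. The mean of the macrophage list was 10.61 ± 0.36, 9.37 ± 0.21 and 8.81 ± 0.53 at day 28 in the same order, with sums of its 20 genes from 52323 to 106163, 33106 to 51889 and 15256 to 37059. At day 14 it was 11.44 ± 0.23, 10.52 ± 0.27 and 9.67 ± 0.56, with sums from 136173 to 161878, 75559 to 104005 and 33210 to 63876. Both lists therefore ran in the order isotype, anti-IFNAR1, syngeneic at each day, as did the means of 6 of the 7 genes, all but Ms4a4c at day 14. Cd3d, with arrays from 4.26 to 4.40 in syngeneic skin at day 28, was near the background there, and Cd79a of B cells was near it in every group, with means from 4.39 to 4.43. Of the 9 B and plasma cell genes, 7 had means near the background in isotype skin at day 28, but Jchain and Cd22 did not. Jchain read 10.42 there, 8.41 in anti-IFNAR1 and 4.55 in syngeneic skin at that day.

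The label of Ms4a4b as a T cell gene was read against these lists by Pearson's r over 24 arrays, a description in which the 6 groups form clusters. Ms4a4b had its highest r, 0.95, with the genes inducible by interferon gamma, and 0.94 with the cytotoxic list. With the T cell list and with the macrophage list r was 0.92, so the levels of Ms4a4b across groups did not single out T cells. As deviations from group means, which remove the differences between groups, r was 0.40 with the T cell list, 0.76 with the cytotoxic list, 0.71 with the macrophage list and 0.84 with the genes inducible by interferon gamma. The split of syngeneic skin at day 14 shows this on single arrays. Replicates 1 to 4 had Cd3d at 5.18, 4.39, 4.39 and 4.48, near the background on replicates 2 to 4. The brighter Cd3e read 7.34, 6.16, 5.30 and 6.45. Of the 2 arrays high in Ms4a4b, replicate 1 was thus also the highest in both genes, while replicate 2 was below replicate 4 in Cd3e. The interferon gamma list averaged 11.01, 10.07, 7.77 and 8.05 on the same arrays, and the cytotoxic list 6.96, 6.11, 4.92 and 5.26. Both were highest on replicates 1 and 2, the arrays on which Ms4a4b was high, but so were 9 of the 12 lists, all but the T cell, B and plasma cell and fibroblast lists. The macrophage list averaged 10.11, 10.18, 9.34 and 9.05 and the type I interferon list 8.78, 8.27, 7.38 and 8.05. Of the 15 T cell genes 7 had means near the background in syngeneic skin at day 14 and 11 at day 28. This limits what the r of 0.40 with the T cell list shows.

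Among the myeloid members, Ms4a6b followed the macrophage list most closely, at r = 0.97 over values and 0.92 over deviations. Over values the macrophage list was also the one of highest r for Ms4a6c (0.91), Ms4a6d (0.93) and Ms4a7 (0.92). Over deviations Ms4a6d had 0.65 with the macrophage list, 0.63 with the neutrophil list and 0.73 with the list of other MS4A family genes. Ms4a4c instead had its highest r with the type I interferon list, 0.90. Between members, r over values ran from 0.59 for Ms4a4b with Ms4a4d to 0.96 for Ms4a6c with Ms4a6d. Ms4a4b and Ms4a7 correlated at 0.90 over values and at 0.07 over deviations, so their likeness lay in the differences between groups.

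**Figure D3:**
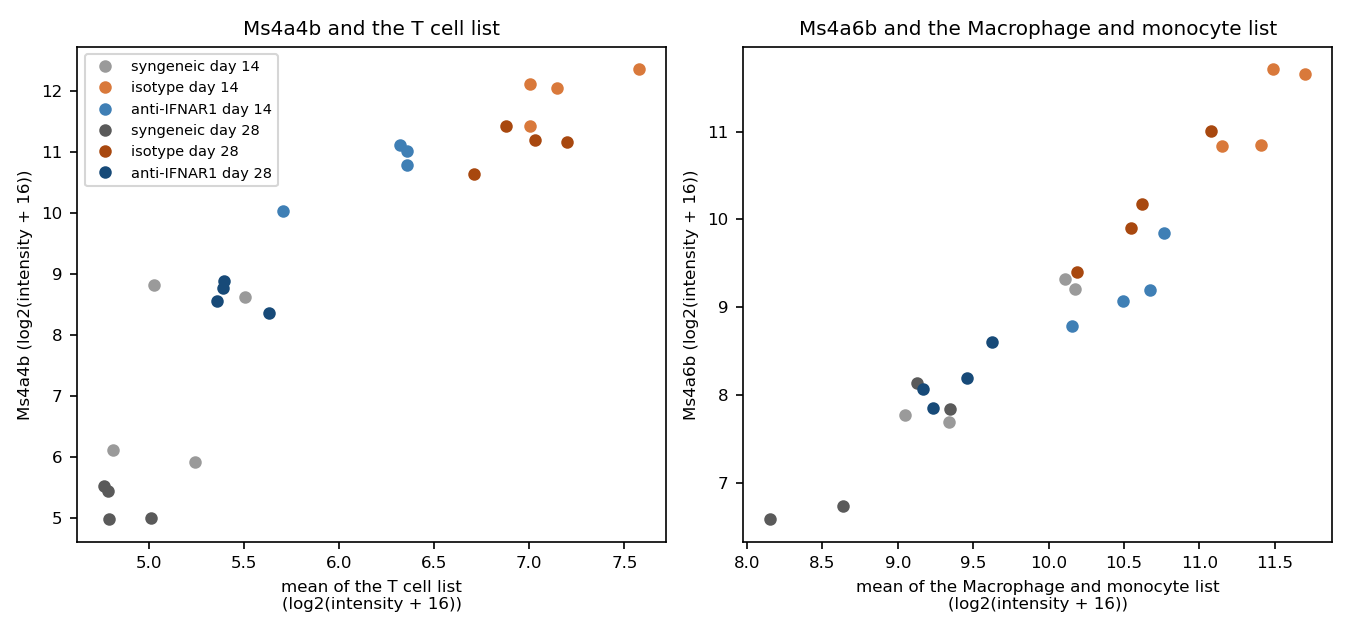
Left, Ms4a4b against the mean of the T cell list, and right, Ms4a6b against the mean of the macrophage and monocyte list, one point per array and coloured by group, all axes in log2(intensity + 16). On the left 2 syngeneic day 14 arrays lie above the other 2 in Ms4a4b, beside the anti-IFNAR1 day 28 arrays, and on the right the 24 arrays follow one band (r = 0.97).

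The genes whose levels were most like each member over the 24 arrays were listed by Pearson's r. For Ms4a4b these were Ccl5, a chemokine of activated T and natural killer cells (r = 0.98), Nkg7 (0.977) and Cxcl9, a chemokine induced by interferon gamma (0.96). For Ms4a4c they were Kcnab2 (0.928), Trim30d (0.905) and Naip2 (0.901), and for Ms4a4d Synj1 (0.924), Serpinb9 (0.907) and Tor3a (0.906). Ms4a6b was nearest to Ifi202b, an interferon-inducible gene (0.978), to the inhibitory Fc receptor gene Fcgr2b (0.972) and to Nmi (0.972). Ms4a6c was nearest to Wfdc17 (0.937), the complement gene Cfb (0.931) and Ifi202b (0.929). Ms4a6d was nearest to Bst1 (0.959), Ifi202b (0.956) and Msr1 (0.955). Ms4a7 was nearest to Wfdc17 (0.932), the complement receptor gene C3ar1 (0.932) and Xdh (0.928).

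The rest of the family was read from 12 other measured genes, 10 of the Ms4a genes on chromosome 19 among them. Under anti-IFNAR1 0 of the 12 passed at either day with limma, where 0.813% of all genes passed at day 14 and 13.3% at day 28, and 0 to 2 fell at each day over the alternatives. In every group 8 of the 12 had means near the background, so a fall in these could not be seen. Ms4a8a was nearest to the threshold, at -1.63 ± 0.39 at day 14 (adjusted p = 0.0547) and -0.79 ± 0.39 at day 28 (adjusted p = 0.219). In isotype against syngeneic skin Ms4a8a rose by 1.71 ± 0.39 at day 14 (adjusted p = 0.00835) and 1.43 ± 0.39 at day 28 (adjusted p = 0.0155). Tmem176b, a related 4-span gene of myeloid cells, rose by 0.82 ± 0.18 (adjusted p = 0.00607) and 0.70 ± 0.18 (adjusted p = 0.00968). These were 2 of 12 at each day, where 5.29% and 6.66% of all genes rose. Both are named because they passed, and the list was chosen with earlier results of these arrays known, so nothing is read from this count. Ms4a1, encoding CD20, stayed near the background. In anti-IFNAR1 minus isotype skin at day 28 it had 0.00 ± 0.07 (adjusted p = 1), and Ms4a2, the mast cell gene, had -0.08 ± 0.27 (adjusted p = 1). In isotype minus syngeneic skin at day 28 Ms4a2 had -0.39 ± 0.27 (adjusted p = 0.435). Both lie outside the block of the 7 genes, on opposite sides.

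**Figure D4:**
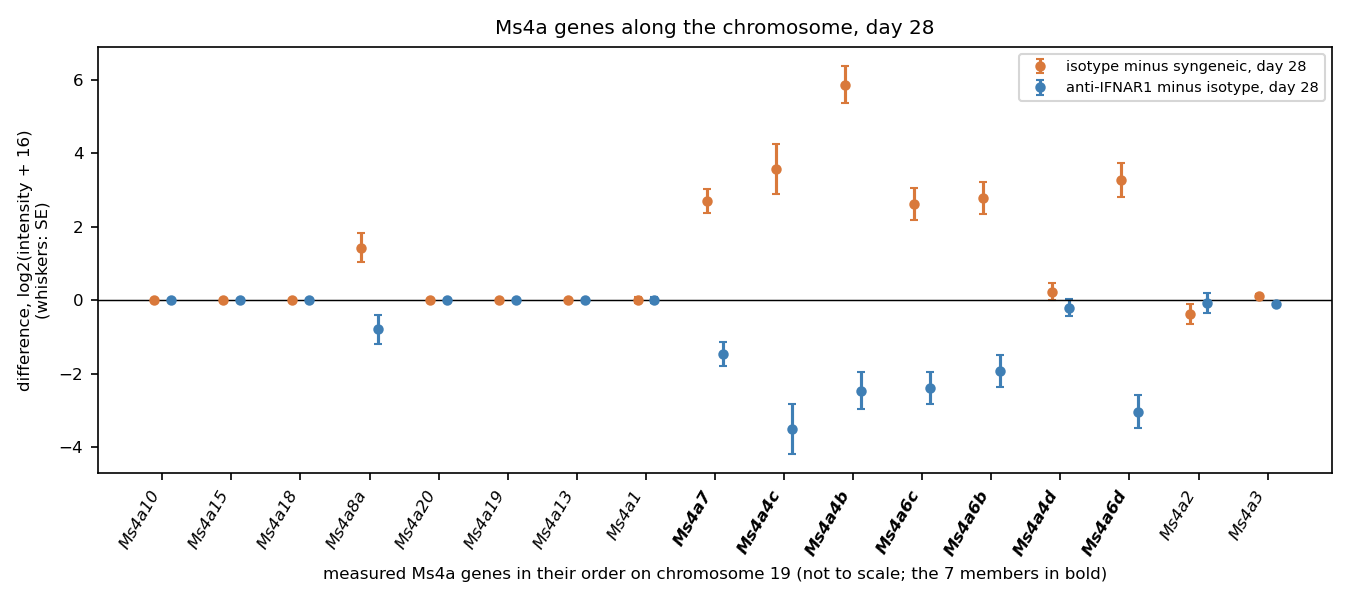
Change of the 17 measured Ms4a genes at day 28 in their order along chromosome 19 (not to scale), as the difference of isotype from syngeneic and of anti-IFNAR1 from isotype skin in log2(intensity + 16) units, with whiskers for the SE. The 7 members, in bold, are neighbours among the genes measured, and 6 of them lie above 2.6 in the first difference and below -1.4 in the second, while Ms4a4d lies near 0. Of the other Ms4a genes shown, 8 had means near the background in every group.

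Several members have more than 1 probe set, and these did not all give the same picture. The second probe set of Ms4a6b changed by -1.83 ± 0.32 at day 28 (limma adjusted p = 0.00169), that of Ms4a6d by -2.98 ± 0.61 (adjusted p = 0.00412) and that of Ms4a4c by -2.71 ± 0.65 (adjusted p = 0.0119). At day 14 they had -0.82 ± 0.32 (limma adjusted p = 0.22), -2.66 ± 0.61 (adjusted p = 0.0498) and -2.54 ± 0.65 (adjusted p = 0.0725). Which members passed at day 14 thus depended on the probe set, as Ms4a6b did not pass here and Ms4a6d did. The second probe sets of Ms4a4b, Ms4a6c and Ms4a7 and the third of Ms4a6d were dim, with arrays of 4.41 to 5.20, 4.49 to 4.81, 4.51 to 5.06 and 4.63 to 4.96. None of these 4 passed at day 28, where their changes ran from -0.27 to -0.02. The probe sets used for Ms4a4c and Ms4a6d carry the suffix with which Affymetrix marks probes shared by several transcripts, so signal of a close relative in them was not tested. The second probe set of Ms4a4c carries a suffix for probes that may also bind other sequences, so it is no independent check.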

How the data were processed

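The authors deposited 1 linear intensity per probe set and array for 24 Affymetrix arrays, in the series' value table. Per the labels' protocols, RNA of the skin was purified on columns and biotin-labelled for hybridisation. Summarisation and normalisation of the intensities are not given in the sources used here. Medians of single arrays were 14.8 to 17.7, and 49% to 50.9% of values were below 16. For arrays, the number per group limits the precision.

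Values were used as log2(intensity + 16), which understates changes of dim genes. Symbols came from the platform annotation, updated through gene identifiers. Probe sets with several symbols (932) or none listed (9160) were left out, and the brightest probe set by mean log2 value stood for a gene. Means of the 6 groups were fitted with limma 3.58.1 (lmFit, eBayes) in R 4.3.3. Two-sided p-values were adjusted over all 18193 genes (Benjamini-Hochberg), with a threshold of 0.05. The fit, with 18 residual degrees of freedom, was tested on simulated data.

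The members and lists were chosen with earlier results of these data known. The genes named were all members, per member the 3 genes of highest r, Ms4a1, Ms4a2 and other MS4A genes that passed, per list up to 3 called genes of the widest change, and Cd3d, Cd3e, Csf1r, Adgre1 and Cd79a. Alternatives varied the offset, normalization, probe sets, filter, arrays, prior, weights, block and RNA quality. Promoter sequences were those of RefSeq (GRCm38.p6).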

Additional observations from a re-analysis of the deposited data

Results flagged for a closer look

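Ms4a7 in syngeneic skin at day 14 had 1 array far from the other 3. Replicate 1 read 6.78 on the log2(intensity + 16) scale, and the others lay from 7.34 to 7.44, so the gap made up 0.848 of the range. That replicate was the highest of its group in Ms4a4c, Ms4a4d, Ms4a6b and Ms4a6d, and the second lowest, at 6.49, in Ms4a6c. It was 1 of 42 combinations of a member and a group examined this way, and chance alone flags about 1 in 20.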

How the results depend on the processing

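The fall of 6 of 7 genes under anti-IFNAR1 at day 28 stayed at 6 in every alternative run, including quantile normalization, the replicate block and each array left out. The 2 calls at day 14 became 1 with an offset of 1, 4 with the mean of all probe sets, 5 without the dimmer genes and 7 with array weights. They became 0 with only the arrays compared (fewer arrays share the estimate of spread), the replicate block, the Gapdh ratio as covariate, or without arrays of a log2 Gapdh ratio above 4. Leaving out 1 array at a time gave 0 to 5, with 5 without isotype replicate 4, 3 without anti-IFNAR1 replicate 1 and 0 without each other array of these groups. The single call between days in anti-IFNAR1 skin became 2 with quantile normalization, centred medians or the filter on dim genes and 4 with array weights. It became 0 with the mean of all probe sets, only the arrays compared, the replicate block, the Gapdh covariate or without arrays of high Gapdh ratio, and 0 to 2 with 1 array left out, 2 being without day 14 replicate 2. In isotype skin the 1 call became 0 with only the arrays compared. In syngeneic skin 0 calls became 1 with array weights and 0 to 2 with 1 array left out (day 14 replicate 3 for 2, replicate 4 for 1). The interaction gave 0 throughout. The median distance of isotype from syngeneic skin at day 14, 2.92, was 1.82 with the mean of all probe sets, which brings in dim ones. Except where named, the cause was not tested.

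Replicate numbers did not pair the arrays: of 60 pairs of equal number 17 had deviations correlated above 0.1 (r from -0.62 to 0.57), and 2 of 24 arrays correlated best with their own number. Sensitivity is limited by the offset for genes near the background and by 4 arrays per group.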

Other observations

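Once the group means were removed, the nearest genes of several members changed. For Ms4a4b they were Fxyd5 (r = 0.882 over 24 arrays), the immunoproteasome gene Psmb8 (0.876) and Clec4n (0.87), none of which is a T cell receptor gene. Ms4a6b kept Fcgr2b (0.916) and Ifi202b (0.907) and gained the activating Fc receptor gene Fcgr3 (0.898). Ms4a4c kept Kcnab2 (0.812) and Trim30d (0.808). Ms4a6c was nearest to the lectin gene Cd209c (0.804) and Ms4a6d to Ido1, an interferon-inducible enzyme of tryptophan breakdown (0.836). For Ms4a7 the highest r was 0.727, with Cpxm1. These are descriptions within 6 groups of 4 arrays, picked as the highest of 18193 genes.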
